A study of Mus musculus with 6 samples.

Results

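The mTOR kinase integrates growth factor and nutrient signals, and it works in a pair of complexes. In mTORC1 it binds raptor and controls protein synthesis and autophagy, and in mTORC2 it binds rictor and phosphorylates AKT and related kinases. DEPTOR binds mTOR in both complexes and inhibits it, and the sestrins and REDD1 hold mTORC1 back when amino acids are scarce or cells are stressed. In activated lymphocytes mTORC1 activity is known to accompany growth and cytokine production. The genes described here are Deptor, the complex subunit genes Mtor, Rptor, Rictor, Mlst8 and Akt1s1, and the stress-induced inhibitor genes Ddit4, Sesn1, Sesn2 and Sesn3. They are 10 of the 53278 genes in the count table, they were matched by symbol, and all 10 passed the filter on low counts that left 14361 genes.

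The libraries were made from type-2 innate lymphoid cells (ILC2s) of C57BL/6 mice aged 8 weeks, sorted from visceral adipose tissue after 3 intraperitoneal injections of 1 µg recombinant mouse IL-33. All cells were cultured with IL-2 (10 ng/mL) and IL-7 (10 ng/mL), either with DTA-1 (5 µg/mL), an agonistic antibody to the costimulatory receptor GITR, or with its isotype control. Each group had 3 libraries from 10 ng of RNA each. The labels give 48 h of culture, and part of the study's text gives a shorter time. IL-33 was given to the mice of both groups, so cells without it are not part of the comparison. It was not stated whether the 3 libraries of a group came from separate mice or pools, and the p values below then measure only the spread between these libraries.

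The total expected count was 30569351 to 35131329 per library. Cells positive for CD45, ST2 and CD117 were sorted after lineage-positive cells were gated out, with antibodies to CD3ε (T cells) and FcεRI (mast cells) among those of the lineage gate. The genes of the 3 positive markers were abundant: Ptprc had a mean of 708 normalized counts with the isotype antibody and 682.5 with DTA-1, Il1rl1 had 1178 and 1110, and Kit had 110 and 94.8. A normalized count is the CPM after TMM scaling. Of the markers of other cells, Lep and Cidec of adipocytes and Cdh5 and Cldn5 of endothelial cells were at 0 in all 6 libraries. The summed level of the lists ranged from 0 to 0.454 normalized counts for adipocytes, 0 to 0.769 for neutrophils, 6.44 to 12.25 for macrophages, 10.6 to 24.4 for endothelial cells (nearly all Pecam1), 15.1 to 44.4 for mast cells, 42.7 to 56.3 for T cells (mostly Cd3g) and 471.5 to 609.7 for fibroblasts (nearly all Gsn). These levels reach or exceed those of several of the 10 genes. In Pearson correlations across the tested genes (log2 CPM), the library labelled DTA-1 replicate 1 was as near to the isotype control libraries (0.977 to 0.979) as to DTA-1 replicates 2 and 3 (0.9769 and 0.9758), which were at 0.9803 with each other. Values without it are therefore given beside those with it.

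The genes were chosen by symbol, and the set was selected on the normalized counts of these libraries, with the difference between DTA-1 and isotype control known, so the differences of the 10 genes are a description and are given with their errors and no test. Deptor was the member with the clear difference. It was lower in every DTA-1 library than in every isotype control library, at a mean of 48.8% of the isotype control level. Rptor and Sesn2 were also lower in all DTA-1 libraries, by far less, and the groups overlapped for the other 7 genes. No member was higher in all DTA-1 libraries. Over all genes tested, 6.03% were below in every DTA-1 library and 5.26% were above.

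Deptor (chromosome 15, 55112317 to 55259271, plus strand, GRCm38) encodes the DEP domain protein that inhibits mTOR. Reads assigned to it numbered 292, 278 and 230 in the isotype control libraries and 115, 109 and 123 in the DTA-1 libraries, each in the order of replicates 1, 2 and 3, the order used throughout. As normalized counts these were 8.25, 7.93 and 6.52 against 3.72, 3.49 and 3.86. The lowest isotype control library was above the highest DTA-1 library. The DTA-1 libraries lay close together (coefficient of variation 5.02%), closer than counting error alone gives on average at 109 to 123 counts. The isotype control mean was 7.57 ± 0.921 and the DTA-1 mean 3.69 ± 0.185 (SD, n = 3 each), a log2 fold change (log2FC, DTA-1 minus isotype control) of −1.04 (standard error, SE, 0.20, 95% interval −1.48 to −0.59). In this sorted bulk RNA, fewer cells with Deptor and less Deptor RNA per cell cannot be told apart.

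Deptor in the library labelled DTA-1 replicate 1 was at 3.72 normalized counts, between the other DTA-1 libraries, although that library was no nearer to its group than to isotype control over all genes. Without it the log2FC was −1.04 (SE 0.22). Leaving out each library in turn gave −1.13 to −0.96. Of the 14361 genes tested, 254 had a log2FC as low as that of Deptor or lower, most of them with very few reads. Among the 11092 genes with a mean of at least 2 normalized counts there were 15, and among the 9817 with at least 5 there was 1, Deptor itself. Deptor's own mean over the 6 libraries lies just above that limit, which was chosen with its level known.

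**Figure D1:**
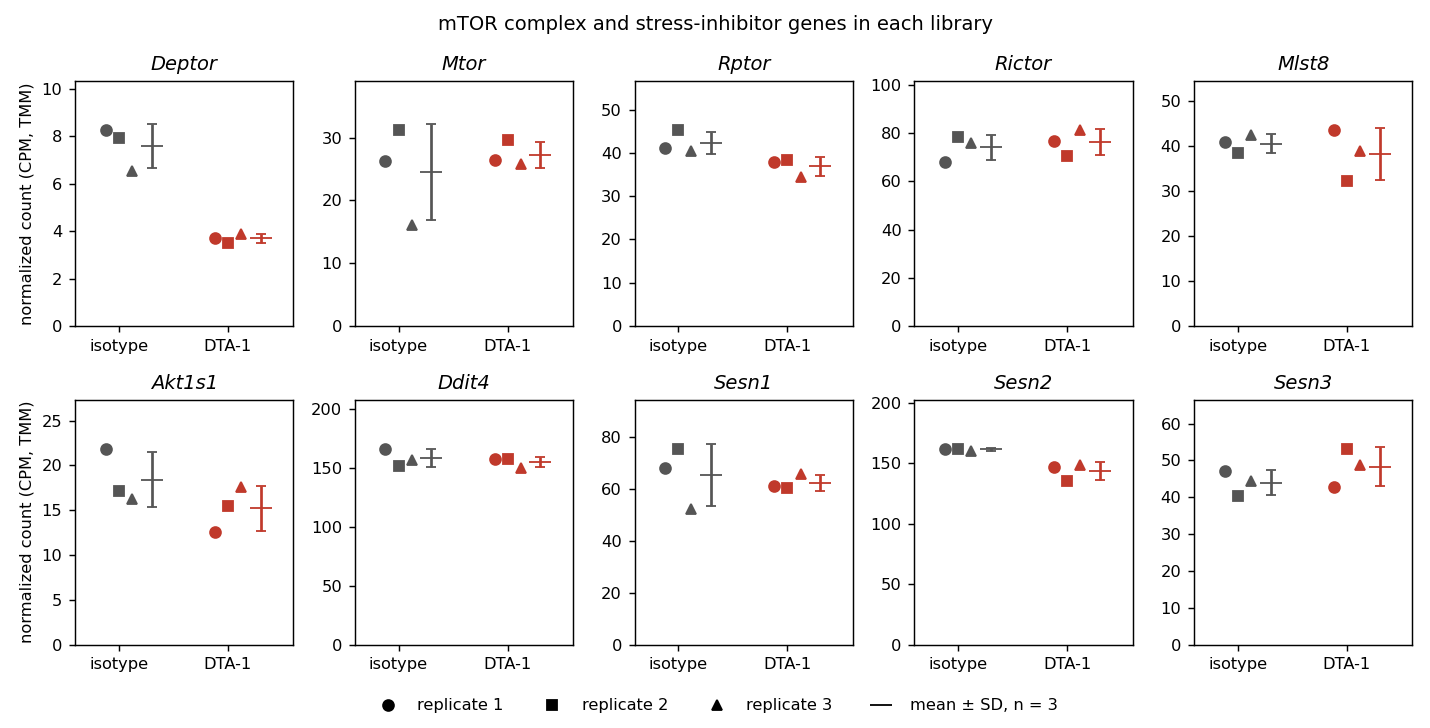
Normalized count (CPM after TMM, linear axis from 0) of each of the 10 genes in the 3 isotype control (grey) and 3 DTA-1 (red) libraries, with marker shape for the replicate and mean ± SD (n = 3) at the side. Deptor had 6.52 to 8.25 normalized counts with the isotype antibody and 3.49 to 3.86 with DTA-1, whereas for Ddit4 and Rictor the libraries of the groups intermingled.

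Some markers of other cells also differed between the groups. In the list of 10 fibroblast genes, 6 had enough reads to be tested and 0 were called by edgeR with all libraries. Of these 6, 3 were lower in every DTA-1 library, against 6.03% of all genes tested. These were Col1a1, with 60, 56 and 68 counts under isotype control against 0, 9 and 3 under DTA-1, Pdgfra, with 68, 14 and 25 against 0 in all 3, and Fbn1, with 20, 22 and 35 against 0 in all 3. These 3 genes passed the filter on low counts through the isotype control libraries alone, so their lower place with DTA-1 was nearly fixed by the filter. Pdgfra was called when that filter was not used. Col3a1 had 57, 3 and 102 counts against 0, 0 and 92, and Col1a2 had 11, 4 and 94 against 0, 0 and 31, so both overlapped. Pi16 went the other way, with 1, 0 and 0 counts against 3, 6 and 5, and Gsn, which held nearly all reads of the list, had means of 479 normalized counts with the isotype antibody and 563 with DTA-1. Pecam1, a gene that leukocytes also express, had 864, 645 and 782 counts against 567, 326 and 344, lower in every DTA-1 library. In the T cell list all 5 tested genes had a lower fitted level with DTA-1 (median log2FC −0.03), and 0 were called. Of these 5, 1 was lower in every DTA-1 library, Foxp3, with 104, 89 and 100 counts against 66, 37 and 74. The mast cell list summed to 16.7, 21.04 and 15.1 normalized counts against 15.7, 44.4 and 32.2, which overlap only through DTA-1 replicate 1. All 4 of its tested genes had a higher fitted level with DTA-1, against 6901 of the 14361 genes tested, with a median log2FC of 0.81. With all libraries 0 of these 4 genes were called and 0 were separate between the groups. The part of these cells in the Deptor difference was not tested.

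Within each library the ratio of Deptor to the complex subunits does not depend on library scaling. Per kb of exon, Deptor over Mtor was 0.358, 0.289 and 0.462 in the isotype control libraries and 0.161, 0.135 and 0.171 in the DTA-1 libraries. Deptor over Rptor was 0.245 to 0.305 with the isotype antibody and 0.138 to 0.170 with DTA-1, and Deptor over Rictor was 0.164 to 0.231 and 0.0905 to 0.0943. The groups were separate for all 3 ratios. This follows from the Deptor difference itself, because the 3 subunit genes moved far less. The ratios are a description and no further support. An antisense transcript gene, Gm9920, overlaps an exon of Deptor on the other strand and had 1.06 to 14.98 expected counts per library. Whether strand was used in the counting is not given in the sources used here. If it was not, reads from the shared stretch could have been assigned to either gene. The part of this overlap in the level of Deptor was not tested.

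The catalytic subunit gene Mtor (chromosome 4, 148448611 to 148557683, plus strand) had 26.2, 31.2 and 16.1 normalized counts with the isotype antibody and 26.4, 29.6 and 25.7 with DTA-1. All DTA-1 libraries lay inside the isotype control range, which was wide because of the low value in isotype control replicate 3. Mtor had the largest spread among isotype control libraries of the 10 genes, with a coefficient of variation of 31.5% against a median of 10.4% over all genes tested. Its log2FC was 0.15 (SE 0.20), and it was −0.08 without isotype control replicate 3.

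Rptor encodes raptor, the scaffold that recruits mTORC1 substrates (chromosome 11, 119602905 to 119899576, plus strand). It had 41.1, 45.3 and 40.4 normalized counts with the isotype antibody and 37.9, 38.3 and 34.4 with DTA-1. The groups were separate by a small margin, and the DTA-1 mean was 87.2% of the isotype control mean (log2FC −0.20, SE 0.10). Rictor, the defining subunit of mTORC2 (chromosome 15, 6708379 to 6800401, plus strand), had 68.1, 78.4 and 75.9 normalized counts with the isotype antibody and 76.8, 70.6 and 81.4 with DTA-1. Here the groups overlapped, with a log2FC of 0.04 (SE 0.09, 95% interval −0.15 to 0.23). The ratio of Rptor to Rictor per kb of exon was 0.758, 0.726 and 0.670 with the isotype antibody and 0.620, 0.681 and 0.532 with DTA-1. The ratios overlapped, because DTA-1 replicate 2 was above isotype control replicate 3.

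Mlst8 encodes the small subunit that both complexes share (chromosome 17, 24473551 to 24479078, minus strand). It had 40.8, 38.4 and 42.5 normalized counts with the isotype antibody and 43.6, 32.2 and 39.0 with DTA-1, so that the highest and the lowest value were both in DTA-1. Its log2FC was −0.09 (SE 0.12), and 0.03 without DTA-1 replicate 2. Akt1s1 encodes PRAS40, an mTORC1 subunit that AKT phosphorylates (chromosome 7, 44848991 to 44855421, plus strand). It had 21.9, 17.1 and 16.2 normalized counts with the isotype antibody and 12.6, 15.5 and 17.6 with DTA-1, which overlap, with a log2FC of −0.27 (SE 0.17). An exon of Akt1s1 overlaps Tbc1d17 on the other strand, which had 1405 to 1895 expected counts per library against 389 to 774 for Akt1s1. Reads from the shared stretch could have been assigned to either gene if strand was not used, so the level of Akt1s1 is uncertain.

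**Figure D2:**
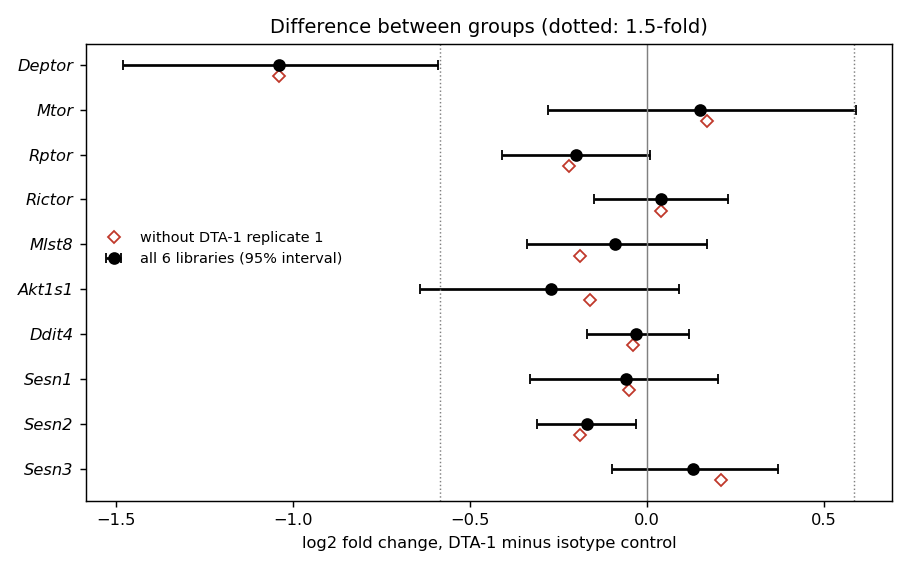
Log2 fold change of DTA-1 minus isotype control for the 10 genes with all 6 libraries (black circles, 95% interval) and without DTA-1 replicate 1 (red diamonds), with dotted lines at a 1.5-fold change. Deptor is at −1.04 with and without that library, and the other 9 genes lie between −0.27 and 0.15 with all libraries.

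Ddit4 and Sesn2 were the most abundant of the inhibitor genes. Their RefSeq promoters are shown because both genes are known stress-response targets with similar counts. Sesn2 was lower in every DTA-1 library, as were 6.03% of all genes tested, and Ddit4 was not. Whether the motifs below bear on this difference was not tested. Each sequence is the 250 bases before the annotated start, read 5′ to 3′ on the gene's strand (GRCm38.p6), and capitals mark motif matches on either strand. The motifs are the CCAAT box, which reads ATTGG where it lies on the other strand, and ACGTG, the core of the hypoxia response element, for which GCGTG was also accepted. The Ddit4 window is chr10:59951771-59952020 and the Sesn2 window is chr4:132510457-132510706, both on the minus strand.
Ddit4: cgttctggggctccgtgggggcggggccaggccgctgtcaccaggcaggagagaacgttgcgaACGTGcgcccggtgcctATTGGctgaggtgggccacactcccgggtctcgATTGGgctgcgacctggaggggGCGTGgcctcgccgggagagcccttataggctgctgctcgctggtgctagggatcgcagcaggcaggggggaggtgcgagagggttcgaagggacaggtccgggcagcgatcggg
Sesn2: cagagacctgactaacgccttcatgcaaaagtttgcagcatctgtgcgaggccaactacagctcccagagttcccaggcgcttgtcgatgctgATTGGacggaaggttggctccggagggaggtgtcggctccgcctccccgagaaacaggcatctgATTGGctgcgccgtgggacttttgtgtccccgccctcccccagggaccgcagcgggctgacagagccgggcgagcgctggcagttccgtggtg

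The Ddit4 window held 2 CCAAT matches, which begin 170 and 137 bases before the start, and 2 matches to the hypoxia-inducible factor core, at 187 and 115 bases. The Sesn2 window held 2 CCAAT matches, at 157 and 93 bases, and none to that core. Of 32851 RefSeq windows of the same length, 33.85% held CCAAT and 38.6% held ACGTG or GCGTG on either strand. The table had windows for 9 of the 10 genes, Deptor not among them, and 10 windows in all because Sesn1 has 2 starts. CCAAT was in 7 of these 10 windows (those of Ddit4, Mtor, Rictor, Sesn2 and Sesn3 and both of Sesn1). ACGTG or GCGTG was in 5 of these 10 windows (a window each of Akt1s1, Ddit4, Rictor, Rptor and Sesn1). The element TGATGNAA of ATF4 was in 0 of them and in 3.45% of all windows, CACGTG was in 0 and in 6.02%, and GTAAACA or ATAAACA, read by FOXO factors, was in 0 and in 7.10%. CACGTG contains ACGTG, so these matches are not independent. The NF-κB consensus was matched in 1 window, that of Akt1s1, and in 7.25% of all windows. Such matches describe letters in a window and not bound sites.

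Ddit4 encodes REDD1, which restrains mTORC1 through the TSC complex (chromosome 10, 59949669 to 59951834, minus strand). It had 166.5, 151.5 and 156.4 normalized counts with the isotype antibody and 157.8, 157.7 and 150.1 with DTA-1. The groups overlapped and were narrow, with a log2FC of −0.03 (SE 0.06, 95% interval −0.17 to 0.12). Sesn2, which encodes a leucine-sensing inhibitor of mTORC1 (chromosome 4, 132492032 to 132510501, minus strand), had 162, 162 and 160.0 normalized counts with the isotype antibody and 147, 135 and 149 with DTA-1. The isotype control libraries differed little among themselves (coefficient of variation 0.798%), less than counting error alone gives on average at 5644 to 5735 counts. Every DTA-1 library lay below them, as for 6.03% of all genes tested. The DTA-1 mean was 88.9% of the isotype control mean, with a log2FC of −0.17 (SE 0.06) and −0.19 (SE 0.07) without DTA-1 replicate 1.

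Sesn1, a sestrin gene known as a target of p53 (chromosome 10, 41809935 to 41908424, plus strand), had 67.9, 75.6 and 52.2 normalized counts with the isotype antibody and 61.1, 60.2 and 65.8 with DTA-1. As for Mtor, all DTA-1 libraries lay within the isotype control range and isotype control replicate 3 was the lowest. Its log2FC was −0.06 (SE 0.12), and 0.05 without isotype control replicate 2. Sesn3, a sestrin gene known as a target of FOXO factors (chromosome 9, 14275067 to 14333101, plus strand), had 47.1, 40.4 and 44.5 normalized counts with the isotype antibody and 42.8, 53.2 and 48.8 with DTA-1. The groups overlapped only through DTA-1 replicate 1, which was below isotype control replicates 1 and 3. The log2FC of Sesn3 was 0.13 (SE 0.11), and 0.21 (SE 0.10) without that library, where 15.4% of all genes tested were above in every remaining DTA-1 library. Sesn2 made up 68.3 to 74.2% of the summed sestrin level per kb of exon in isotype control and 67.6 to 70.0% in DTA-1, Sesn1 made up 21.1 to 27.8% and 25.4 to 26.5%, and Sesn3 made up 3.87 to 4.70% and 4.64 to 6.07%. These shares overlapped between the groups.

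Levels of different genes were compared per kb of the union of annotated exons. Ddit4 was highest, at 90.1 ± 4.36 normalized counts per kb in isotype control, followed by Sesn2 (46.5 ± 0.371), Sesn1 (16.4 ± 2.99) and Mlst8 (9.15 ± 0.460). Akt1s1 (5.99 ± 0.992) and Rictor (4.38 ± 0.314) came next, and then Rptor (3.14 ± 0.195), Sesn3 (2.88 ± 0.222) and Mtor (2.42 ± 0.762). Deptor was lowest, at 0.853 ± 0.104 with the isotype antibody and 0.416 ± 0.0209 with DTA-1 (SD, n = 3 for each value). The isotype control libraries of Rptor and Sesn3 overlapped, as did those of Sesn3 and Mtor, and the other neighbours in this order were separate. By the exon union the DTA-1 order differed only in that Sesn3 (3.16 ± 0.343) was above Rptor (2.74 ± 0.158). With the length of the longest transcript in place of the exon union, the isotype control order was the same, and Akt1s1 and Rictor then overlapped. The DTA-1 order depended on that choice: with the longest transcript Rptor (5.59 ± 0.322) was above Sesn3 (5.29 ± 0.575), and Rictor (8.19 ± 0.579) was above Akt1s1 (6.89 ± 1.13).

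**Figure D3:**
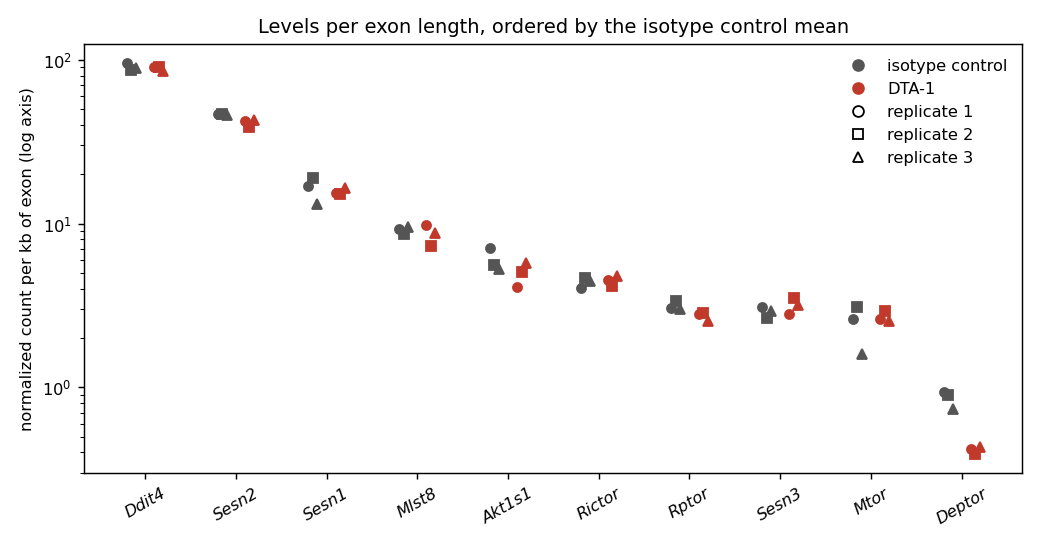
Normalized count per kb of exon (log axis) of the 10 genes in each isotype control (grey) and DTA-1 (red) library, ordered by the isotype control mean. The levels run from 90.1 for Ddit4 to 0.853 for Deptor in isotype control, and Deptor is the gene whose groups are visibly apart.

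As the set was selected on this contrast, no count of calls is given for the members. The median log2FC of the 10 genes was −0.08, against −0.01 for all genes tested.

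The other genes of the pathway were taken from 10 lists with 96 genes, of which 94 were tested, Irs1 had 0 counts in every library, and the symbol Kics2 was not matched. Called genes were those with an adjusted p under 0.05 (edgeR, quasi-likelihood test, Benjamini-Hochberg over all genes) and a change of at least 1.5-fold. Of the 94 genes 0 were called by edgeR, as were 0% of all genes tested. DESeq2's Wald test called 0 of them against 0.152% of all genes, limma-trend called 0, and edgeR without DTA-1 replicate 1 called 0 against 0.744%. At an unadjusted p under 0.05 there were 5 of the 94, 2 higher and 3 lower with DTA-1, against 7.22% of all genes, and 0 reached 1.5-fold as well, against 2.35%. In 2 genes every DTA-1 library was above and in 4 below every isotype control library, against 5.26% and 6.03% of all genes tested. Of the 94 genes 45 had a higher and 49 a lower fitted level with DTA-1, against 6901 and 7460 of all genes tested. Their median log2FC was −0.01, the same as for all genes tested. The medians of the lists ran from −0.10 to 0.12.

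For each list the genes with the highest and the lowest log2FC among those with at least 10 normalized counts are given. Among 6 further mTORC2 subunit and mTOR chaperone genes, Mapkap1, which encodes the mTORC2 subunit SIN1, was at 0.02 (SE 0.08). Telo2, which encodes a chaperone that assembles mTOR-family kinases, was at −0.25 (SE 0.10, adjusted p = 0.657 by edgeR), with 35.4, 35.3 and 40.3 normalized counts with the isotype antibody and 29.3, 31.9 and 32.0 with DTA-1. Every DTA-1 library of Telo2 was thus below every isotype control library. Of the 5 genes of the TSC complex and Rheb, Tsc1 was at 0.07 (SE 0.16) and Rheb, the GTPase that activates mTORC1, at −0.14 (SE 0.07).

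The amino acid branch acts at the lysosome. Of 13 genes of the Rag GTPases, Ragulator and folliculin, 11 had a lower and 2 a higher fitted level with DTA-1. Over all 14361 genes tested these numbers were 7460 and 6901. The median log2FC of the list was −0.10, and 0 of its genes were called. Slc38a9, a lysosomal arginine sensor, was at −0.31 (SE 0.15) and Rragc, a Rag GTPase, at 0.04 (SE 0.08). Among the 13 tested genes of GATOR, KICSTOR and CASTOR, Mios was at 0.14 (SE 0.13) and Itfg2 at −0.14 (SE 0.16). Rragd had a log2FC of −0.90 and Prkaa2, an AMPK catalytic subunit gene, of 2.13, with means over the 6 libraries of only 0.384 and 0.310 normalized counts.

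Growth factor inputs reach mTORC1 through PI3K and AKT, and low energy through AMPK. Of the 16 tested PI3K and AKT genes, 10 had a higher and 6 a lower fitted level with DTA-1, with a median log2FC of 0.02. Insr was at 0.18 (SE 0.17) and Akt2 at −0.15 (SE 0.10). Akt2 had 127, 114 and 113 normalized counts with the isotype antibody and 126, 96.2 and 96.8 with DTA-1, so that only the library labelled DTA-1 replicate 1 was in the isotype control range, and its log2FC without that library was −0.29 (adjusted p = 0.119 by edgeR). In the AMPK list 6 of 7 genes had a higher fitted level with DTA-1, with a median log2FC of 0.12, the highest of the 10 lists, and 0 were called. Prkaa1 was at 0.21 (SE 0.12) and Prkag2 at −0.03 (SE 0.16).

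Among 16 mTORC1 effector genes, Larp1 and Eef2k stood at the ends. Larp1 encodes a protein that mTORC1 phosphorylates and that controls translation of ribosomal protein mRNAs. It had 209, 207.5 and 230.1 normalized counts with the isotype antibody and 216, 286 and 319 with DTA-1, a log2FC of 0.34 (SE 0.12, adjusted p = 0.632 by edgeR). Without DTA-1 replicate 1, whose value lay in the isotype control range, its log2FC was 0.49 (SE 0.07, adjusted p = 0.0103 by edgeR, range over the alternatives 0.0103 to 0.9985), less than 1.5-fold. Eef2k, the kinase that slows translation elongation, had 22.4, 21.5 and 23.2 normalized counts with the isotype antibody and 21.1, 17.1 and 17.6 with DTA-1, a log2FC of −0.26 (SE 0.13, adjusted p = 0.702 by edgeR). Of the 4 mTORC2 effector genes, Sgk1 was at 0.06 (SE 0.09) and Ndrg1 at −0.03 (SE 0.11).

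DEPTOR protein is known to be degraded after ubiquitination by an SCF ligase with βTrCP. Of the 6 genes of this machinery, the βTrCP paralogue gene Fbxw11 was at 0.13 (SE 0.10) and the adaptor gene Skp1a at −0.15 (SE 0.09), and protein turnover was not measured. Among 8 genes for transcription factors known to act on Ddit4 or the sestrin genes, Hif1a had 824, 967.5 and 890.4 normalized counts with the isotype antibody and 950.5, 1108 and 1137 with DTA-1. The log2FC of Hif1a was 0.25 (SE 0.08, adjusted p = 0.627 by edgeR), and without DTA-1 replicate 1, which overlapped isotype control, it was 0.33 (adjusted p = 0.0478 by edgeR, with a range of 0.0478 to 0.9985 over the alternatives), less than 1.5-fold. Cebpb was at −0.28 (SE 0.11, adjusted p = 0.657 by edgeR). Larp1 and Hif1a were the 2 genes of the 94 with an edgeR adjusted p under 0.05 without that library, at any fold, against 1.7% of all genes tested.

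**Figure D4:**
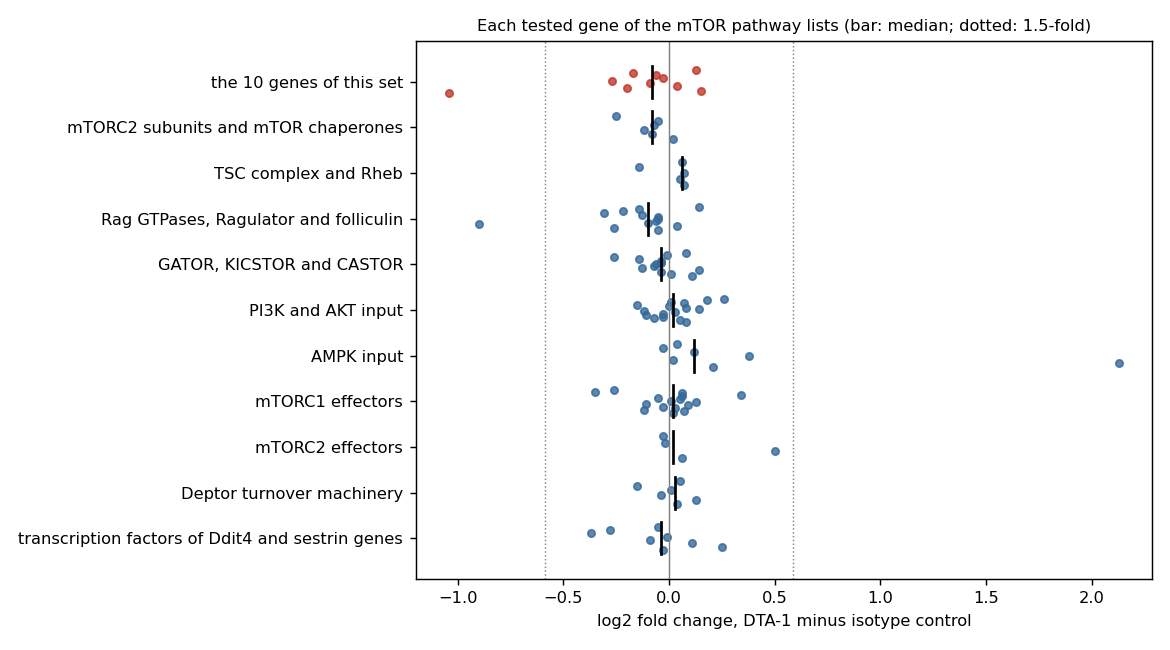
Log2 fold change of DTA-1 minus isotype control for the 10 genes (red, top) and for the 94 tested genes of the 10 pathway lists (blue), with a black bar at each median and dotted lines at 1.5-fold. Rragd at −0.90 and Prkaa2 at 2.13, both with very few reads, are the 2 pathway genes beyond 1.5-fold, and Deptor at −1.04 is the only such gene among the 10.

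The genes whose pattern was most like that of Deptor were sought among 8723 genes with a mean of at least 10 normalized counts, by the Pearson r of log2 CPM over the 6 libraries. The 5 highest were Rmi1 (0.978), Snrnp48 (0.972), 4931406C07Rik (0.968), Faah (0.967) and Dhps (0.963). All 5 had every DTA-1 library below every isotype control library, which any gene must approach to correlate with Deptor over these 6 libraries, and their log2FCs (−0.37 to −0.12) were smaller in size than that of Deptor. Rmi1, for example, had 42.6 to 44.5 normalized counts with the isotype antibody and 36.3 to 37.2 with DTA-1. Of the other members, Sesn2 (0.915) and Rptor (0.807) were most like Deptor, Mtor was at −0.166 and Sesn3 at −0.521.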

How the data were processed

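ILC2s sorted from visceral adipose tissue cultured with DTA-1 or isotype control were compared, 3 libraries against 3. Per the study's methods the authors used Partek for alignment and quantification, and the submitters' processing notes also name STAR 2.5.3a, bcl2fastq 2.17.1.14 and mm10. What the authors deposited are expected counts (reads per gene as estimated, not scaled), and 77.8% of these were whole numbers. The annotation release and the use of strand are not given in the sources used here. Gene starts and ends equalled those of GENCODE mouse release 21 for 47669 of 49618 shared symbols once 1 base was taken from each deposited end.

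Expected counts were rounded and genes with low counts removed (edgeR filterByExpr), which left 14361 genes. The whole table was fitted with edgeR 4.0.16 in R 4.3.3 (TMM, robust quasi-likelihood F test, no covariate). Standard errors were computed from the fold change and its F statistic. The alternatives were DESeq2 1.42.0 (size factors, Wald test), total counts, limma 3.58.1 with the trend and a prior count of 2, other filters, a block for the replicate number, leaving out 1 library at a time, and other thresholds. Tables and plots used pandas 2.3.3, numpy 2.4.6 and matplotlib 3.10.9 in Python 3.11.15. The procedure was tested on simulated counts of 14361 genes. The members and the gene lists were chosen with earlier results of these data known. Named are the members, called genes of the pathway lists, the ends of each list among genes with at least 10 normalized counts, cell markers, and the 5 genes most like Deptor. Deptor had the fewest counts of the members, 109 to 292 per library, against at least 389 for every other member. Counting error is therefore relatively largest for Deptor and is part of its spread between libraries. A count of 0 allows up to 3 counts, or 0.0854 to 0.0981 CPM, which covers counting error only.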

Additional observations from a re-analysis of the deposited data

How the results depend on the processing

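The log2 fold change of Deptor ranged from −1.13 to −0.96 over 13 alternatives. Of the 130 values of the 10 members under these alternatives, 6 had the other sign, all after leaving out 1 library and all in members near 0 (Mtor, Rictor, Mlst8, Ddit4 and Sesn1). The number of members with a lower fitted level was 7, and 6 to 8 with each library left out. The rank of Deptor, the lowest of 10, did not change with total counts or with the longest transcript. The number of called genes, 0 with all libraries, was 2 without the filter on low counts (Ctgf and Pdgfra), 25 with DESeq2's Wald test and 337 by the 1.5-fold limit with the unadjusted p under 0.05, and 0 to 111 with each library left out, the highest without DTA-1 replicate 1. With the replicate number as a block it was 1 (Chil3), and 7 members were then lower and 0 pathway genes called. Deviations of same-numbered libraries from their group means had correlations of −0.0069, −0.00285 and 0.0152. Those of differently numbered libraries ran from −0.0145 to 0.0161. Values this near 0 throughout cannot tell whether same-numbered libraries share an origin, which was not stated. Of the 94 pathway genes 0 were called under any alternative. With 3 libraries a group, small differences of the other members could not be resolved where the spread was wide, as for Mtor.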
